A study of Mus musculus with 6 samples.

Results

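The proteasome is the large protease that breaks down proteins tagged with ubiquitin, and the genes described here encode its subunits, regulators and assembly factors. Members were all genes whose symbol on the array begins with Psma to Psmg followed by a number, leaving out the immunoproteasome genes Psmb8, Psmb9 and Psmb10, and each gene was read from its probe set with the highest mean. This gave 44 genes of the 18193 that the array measured. They came from 96 probe sets, and 19 members had 1 probe set. Psme2 shares its probe set with the symbol Psme2b and was not analysed here.

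RNA came from testes of prepubertal mice, sorted with magnetic beads into cells with and without Thy1, a cell surface glycoprotein. The Thy1-positive fraction is enriched in spermatogonial stem cells, per the transplantation assays that the submitters mention, and the Thy1-negative fraction is depleted of them. For each fraction there are 3 arrays, made from separate preparations of donor testes, here named N1, N2 and N3 (Thy1-negative) and P1, P2 and P3 (Thy1-positive). Where values are listed per array, they stand in the order of these numbers. Strain and age in days are not given, and neither fraction is a pure cell type. Levels are given as log2(intensity + 1), and a difference is the Thy1-positive mean less the Thy1-negative mean on that scale. The adjusted p is that of limma with Benjamini-Hochberg correction across the 18193 genes, and n = 3 in either fraction. A gene is said to be higher or to have risen where its adjusted p is below 0.05. The number of arrays limits the precision of each value.

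The core of the proteasome is a barrel of stacked rings. Alpha subunits form the outer rings and gate the entrance, while beta subunits form the inner rings and carry the active sites. A cap binds to the end of the barrel, recognises ubiquitin chains, removes them, and unfolds and threads the protein with a ring of ATPases. In the testis, germ cells also build a variant core with the alpha subunit Psma8 and use the activator Psme4, known as PA200, while immune cells and cells exposed to interferon swap the catalytic beta subunits for those of the immunoproteasome.

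Proteasome genes were mostly higher in the Thy1-positive fraction, with at least 1 member that rose in every class. Of the 44 members, 28 rose and 0 fell, where 18.5% of all genes tested rose and 14.4% fell. By limma, 29 members had an unadjusted p below 0.05, as did 7930 of the 18193 genes. The median difference was 0.58 over the members and 0.01 over all genes. The quartiles of the differences were 0.35 and 0.87 over the members, and -0.18 and 0.44 over all genes. By more than 1 in either direction differed 6 members, and 3932 of the 18193 genes. The arrays of both fractions did not overlap, with Thy1-positive higher, for 32 members, and the same held for 31.6% of all genes. For 0 members did they separate with Thy1-negative higher, as they did for 19.8% of all genes. Over the 11349 genes above the median of all probe sets, which include 43 members, the median difference was 0.14 and the quartiles -0.57 and 0.73. Of these genes 4418 separated with Thy1-positive higher and 3385 with Thy1-negative higher, and 3683 differed by more than 1. In a fit of only the genes above the median of all probe sets, 33.5% rose, and 29 of the 43 members above that level did so. The count of 28 members became 16 without N1, 14 without N3, 16 without P1 and 12 without P3, while the share of all genes that rose became 10.5%, 8.1%, 10.4% and 7.42%. In the fits without 1 array, 12 of the 28 members passed every time. They were Psma1, Psma2, Psma4, Psmb6, Psmc5, Psmd1, Psmd3, Psmd4, Psmd7, Psmg2, Psmg3 and Psmg4.

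**Figure D1:**
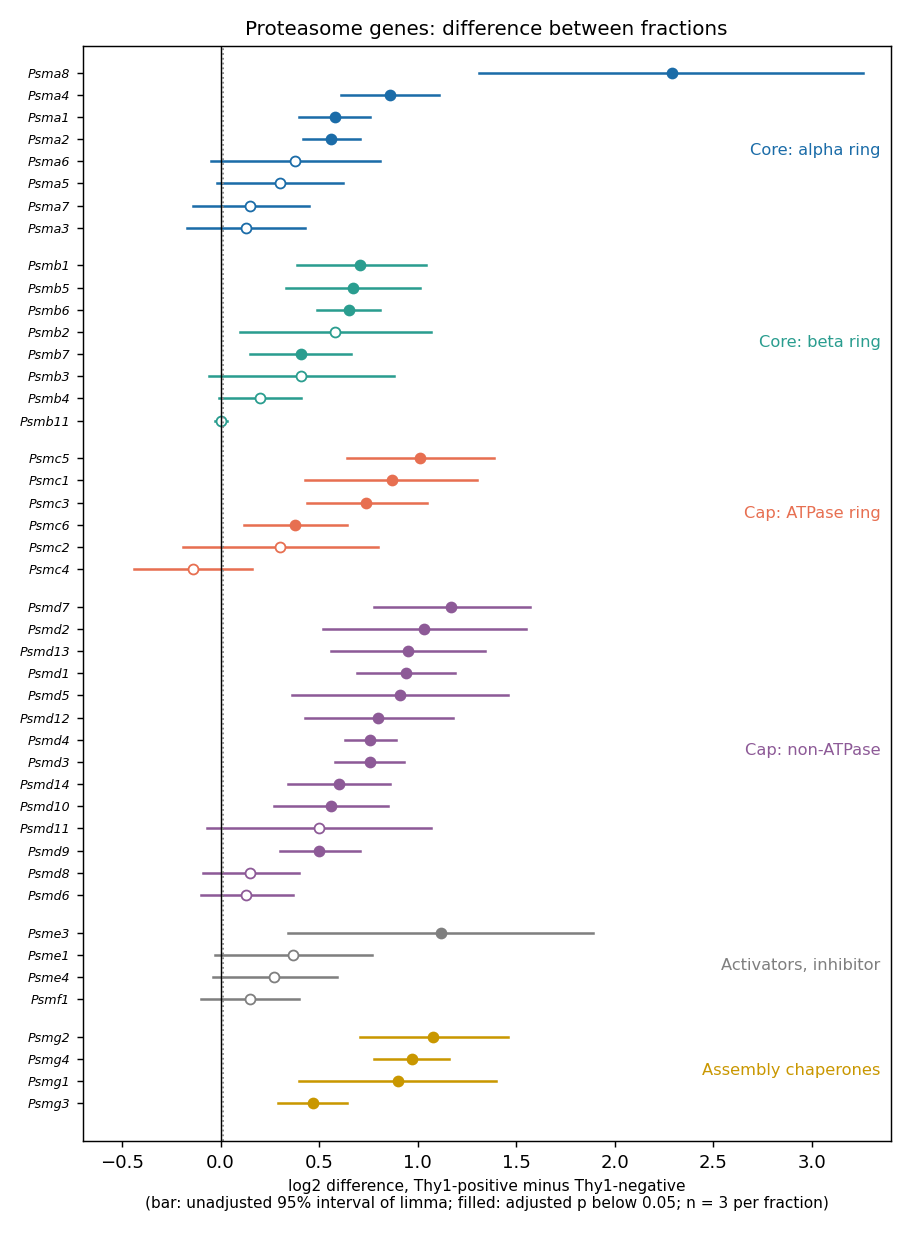
Log2 difference between Thy1-positive and Thy1-negative arrays for the 44 proteasome genes, by class of subunit; points are differences, bars the unadjusted 95% intervals of limma, filled points have an adjusted p below 0.05, and the dotted line marks the median of all genes, 0.01. The filled points number 28 and all lie above 0, Psma8 at 2.29 lies farthest out, and Psmc4 at -0.14 is the member with a negative difference.

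**Figure D2:**
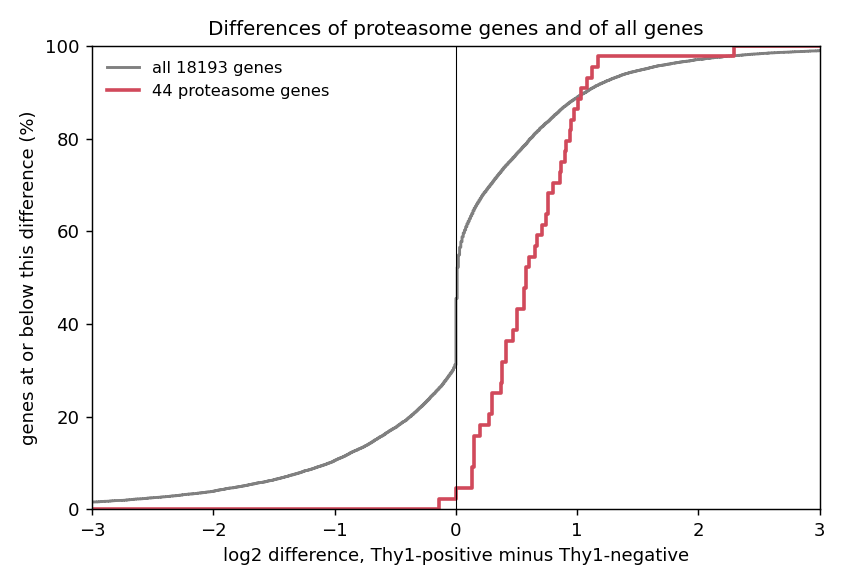
Cumulative share of genes (vertical axis, percent) against the log2 difference between fractions (horizontal axis) for all 18193 genes and the 44 proteasome genes. The proteasome curve rises steeply around its median of 0.58, whereas the curve of all genes has its median at 0.01 and long tails on both sides.

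The arrays of one fraction differed in a like manner for most members. P2 was the lowest Thy1-positive array for 36 of the 44 members, and N2 the highest Thy1-negative array for 32. The mean over all members was 10.88, 11.12 and 10.92 in the Thy1-negative arrays, against 11.67, 11.48 and 11.62 in the Thy1-positive ones, so the fractions did not overlap. Cell type markers moved with these arrays. The 8 general germ cell markers averaged 9.27, 11 and 9.81 in the Thy1-negative arrays and 11.77, 11.68 and 11.77 in the Thy1-positive ones. The 9 Sertoli cell markers averaged 11.53, 10.82 and 11.35 on the Thy1-negative arrays and 6.26, 8.10 and 6.52 on the Thy1-positive arrays, so P2 held the highest Sertoli signal of its fraction. The 12 macrophage markers ranged from 3.34 to 3.44 on average in Thy1-negative and from 9.39 to 9.88 in Thy1-positive arrays, and the 11 measured markers of undifferentiated spermatogonia from 7.01 to 7.76 and from 10.10 to 10.45. Of these lists, 3 of 8 germ cell, 12 of 12 macrophage and 10 of 11 undifferentiated spermatogonia markers rose, and 9 of 9 Sertoli markers fell. The 4 measured T lymphocyte markers averaged 2.97 to 3.24 against 5.57 to 5.76, with 3 higher, and 3 of 5 peritubular myoid, 2 of 4 Leydig and 1 of 4 endothelial markers fell, while 1 endothelial marker rose. In such mixtures more cells of a type and more RNA per cell cannot be told apart. The part of these cell types in the proteasome differences was not tested. Without both N2 and P2, a setting chosen after seeing the data, 31 members rose, where 23.9% of all genes did, and the median difference was 0.74.

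**Figure D3:**
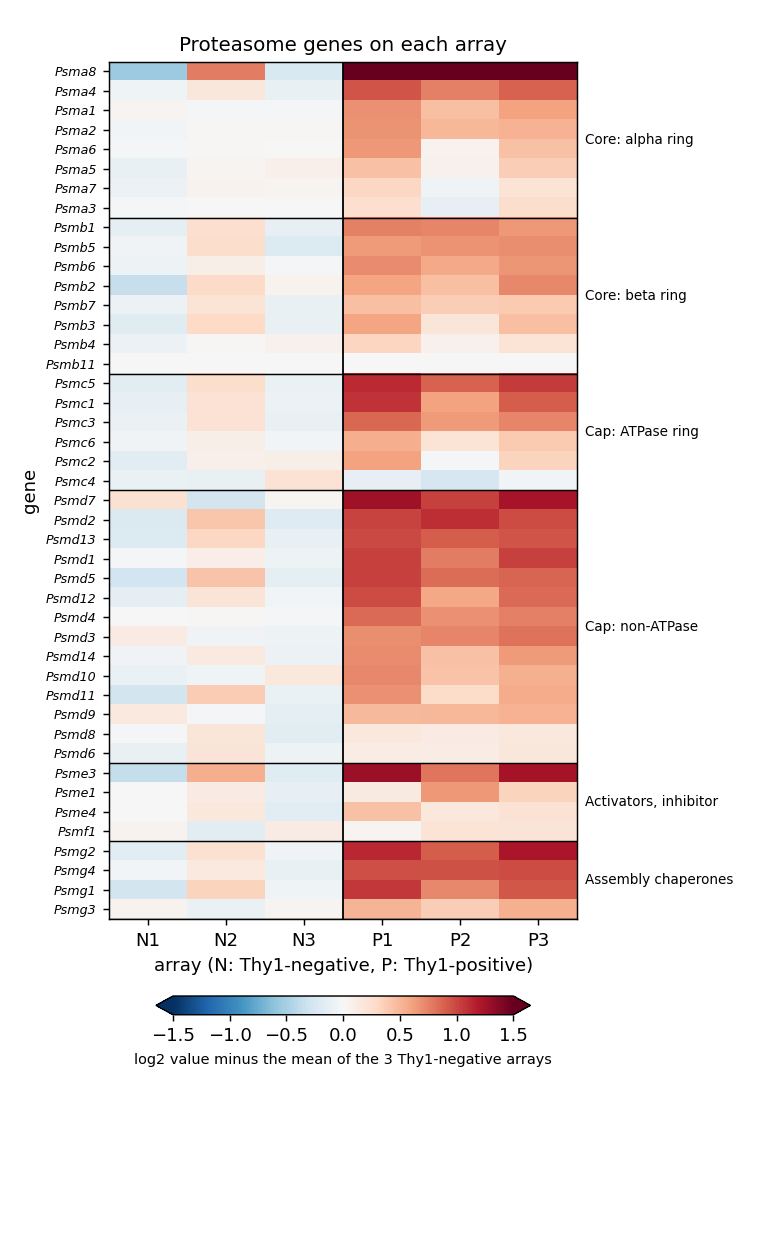
Heat map of the 44 proteasome genes (rows, by class) on the 6 arrays (columns), coloured by the log2 value minus the mean of the 3 Thy1-negative arrays, with colours that saturate at 1.5. The columns P1, P2 and P3 are red for most rows, P2 is paler than P1 and P3 in many of them, and N2 is the reddest Thy1-negative column in most of them.

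The stretch upstream of the start site is shown for a few of the 28 members that rose. RefSeq promoter windows of the GRCm38.p6 build were matched by symbol for 36 of the 44 members, with 38 windows in all, and the 250 bases before each start site were searched on both strands for 4 motifs. The ETS core CCGGAAG, bound by ETS family transcription factors, was in 13 member windows (34.2%), against 10.1% of the windows of all tested genes and 6.91% of all windows. The core of the antioxidant response element, TGACNNNGC, which is bound by Nfe2l1 and Nfe2l2, was in 5 (13.2%), against 11.5% and 10.2%. All 5 belong to members that rose, namely Psmb5, Psmb6, Psmc6, Psmd9 and Psmd12, and members that rose hold 21 of the 38 windows. A link between this motif and the differences was not tested. The CCAAT box, CCAAT, was in 13 (34.2%), against 34.7% and 33.8%, and the interferon response core, 2 copies of TTTC with 2 bases between them, in 3 (7.89%), against 2.61% and 2.98%. The ETS core was in 7 of the 21 windows of members that rose and in 6 of the 17 windows of the others. None of these motifs contains another, and a match is a description of sequence, not a site of binding. Psmd4 (chr3:95042615-95042864, minus strand), Psmc1 (chr12:100109952-100110201, plus strand), Psmg1 (chr16:95990961-95991210, minus strand) and Psme3 (chr11:101315963-101316212, plus strand) are shown as the members of their class with the lowest adjusted p among those with an ETS core, which is in capitals in whichever orientation it occurs:
Psmd4: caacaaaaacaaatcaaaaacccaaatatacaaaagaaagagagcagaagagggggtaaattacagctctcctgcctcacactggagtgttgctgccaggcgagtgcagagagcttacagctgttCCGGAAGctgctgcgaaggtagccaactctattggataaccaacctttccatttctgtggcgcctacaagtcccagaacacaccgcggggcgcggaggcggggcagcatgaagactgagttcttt
Psmc1: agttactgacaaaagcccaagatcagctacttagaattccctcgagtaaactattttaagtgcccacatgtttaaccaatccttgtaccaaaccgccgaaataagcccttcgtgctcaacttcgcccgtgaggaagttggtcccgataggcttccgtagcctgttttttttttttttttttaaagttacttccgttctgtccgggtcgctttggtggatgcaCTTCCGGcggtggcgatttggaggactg
Psmg1: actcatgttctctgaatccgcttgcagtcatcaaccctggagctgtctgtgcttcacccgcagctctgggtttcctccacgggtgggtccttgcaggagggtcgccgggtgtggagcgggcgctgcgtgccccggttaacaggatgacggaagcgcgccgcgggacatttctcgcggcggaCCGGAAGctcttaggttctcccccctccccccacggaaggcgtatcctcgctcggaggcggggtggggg
Psme3: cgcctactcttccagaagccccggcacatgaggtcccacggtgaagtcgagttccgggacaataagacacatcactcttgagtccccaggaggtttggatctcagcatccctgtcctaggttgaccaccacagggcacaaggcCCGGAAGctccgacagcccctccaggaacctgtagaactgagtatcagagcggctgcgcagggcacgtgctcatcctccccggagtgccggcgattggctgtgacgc
The catalytic subunit genes Psmb6 (chr11:70525107-70525356, plus strand) and Psmb5 (chr14:54617996-54618245, minus strand) are shown with the antioxidant response core in capitals:
Psmb6: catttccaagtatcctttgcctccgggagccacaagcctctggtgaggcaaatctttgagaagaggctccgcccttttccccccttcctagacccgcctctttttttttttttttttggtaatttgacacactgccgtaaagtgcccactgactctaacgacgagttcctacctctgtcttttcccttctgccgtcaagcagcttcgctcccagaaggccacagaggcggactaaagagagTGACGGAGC
Psmb5: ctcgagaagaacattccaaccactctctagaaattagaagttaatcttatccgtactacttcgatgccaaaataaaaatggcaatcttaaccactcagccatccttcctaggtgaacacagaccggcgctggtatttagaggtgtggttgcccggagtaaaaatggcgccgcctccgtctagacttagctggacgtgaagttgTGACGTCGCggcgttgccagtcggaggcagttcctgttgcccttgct
Each sequence runs 5′ to 3′ on the strand of its gene and ends at the base before the start site. The ETS core began at position -125 from the start site in Psmd4 and -28 in Psmc1, and the antioxidant response core ended at the last base shown in Psmb6.

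The alpha ring held both the most and some of the least changed members. Of its 8 genes, 4 rose and 0 fell, with a median of 0.47. Psma8, the alpha subunit of the germ cell proteasome, measured 7.01, 8.32 and 7.32 in the Thy1-negative arrays, against 9.94, 9.76 and 9.79 in the Thy1-positive ones. All 3 Thy1-positive arrays were higher than all Thy1-negative ones, and N2 was the nearest to them. Psma8 was thus 4.88-fold higher (2.29, SE 0.37, adjusted p = 0.0133), the largest difference among the members, but failed without N3, P1 or P3 (2.02 to 2.67 over the 6 fits). The general germ cell markers were likewise highest on N2 within that fraction. Psma7, whose place in the ring Psma8 takes, measured 11.79, 11.93 and 11.92 against 12.19, 11.81 and 12.09, so that P2 lay among the Thy1-negative values. Its difference was 0.15 (95% interval -0.14 to 0.45, adjusted p = 0.388).

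Psma4, Psma1 and Psma2, alpha subunits of every proteasome, rose with little spread. Psma4 measured 12.15, 12.38 and 12.10 against 13.15, 12.97 and 13.09 (0.86, SE 0.10, adjusted p = 0.00579). Psma1 measured 12.34, 12.28 and 12.26 against 12.98, 12.74 and 12.90 (0.58, SE 0.07, adjusted p = 0.00697). The fractions were apart by more than the range within either for both genes. Psma2 measured 12.13, 12.19 and 12.19 against 12.84, 12.67 and 12.69 (0.56, SE 0.05, adjusted p = 0.00449). Psma3 (0.13), Psma5 (0.30) and Psma6 (0.38) did not pass, and P2 lay within the Thy1-negative range in Psma5 and below it in Psma3. For the 7 standard alpha subunits, without Psma8, the median was 0.38.

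In the beta ring, all the genes of the standard catalytic subunits rose. Of the 8 genes of this class 4 rose and 0 fell, with a median of 0.50. Psmb5, which carries the chymotrypsin-like activity, measured 11.29, 11.60 and 11.13 in the Thy1-negative arrays, against 11.98, 12.01 and 12.04 in the Thy1-positive ones, a 1.59-fold difference (0.67, SE 0.13, adjusted p = 0.0204). Psmb6, which carries the caspase-like activity, measured 12.35, 12.52 and 12.41 against 13.14, 13 and 13.09, a 1.57-fold difference (0.65, SE 0.06, adjusted p = 0.00436). Psmb7, which carries the trypsin-like activity, measured 12.46, 12.75 and 12.44 against 13, 12.92 and 12.94, a 1.32-fold difference (0.41, SE 0.10, adjusted p = 0.0353). The fractions did not overlap in any of the 3, and the lowest margin was between N2 and P2 in Psmb7. Psmb1, a structural subunit, measured 12.18, 12.57 and 12.19 against 13.07, 13.04 and 12.96 (0.71, SE 0.12, adjusted p = 0.0153). Psmb6 passed in all 6 fits without 1 array. Psmb5 (0.57 to 0.80) and Psmb7 (0.35 to 0.51) passed only without N2, and Psmb1 (0.65 to 0.84) failed without N1, N3, P1 or P3.

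The other beta genes did not pass. They were Psmb2 (0.58, adjusted p = 0.0732), Psmb3 (0.41, adjusted p = 0.159) and Psmb4 (0.20, adjusted p = 0.132), all subunits without an active site. Psmb11, the subunit of the thymus proteasome, measured 2.44 in both fractions, below the 25th percentile of the arrays, so no level can be given for either.

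**Figure D4:**
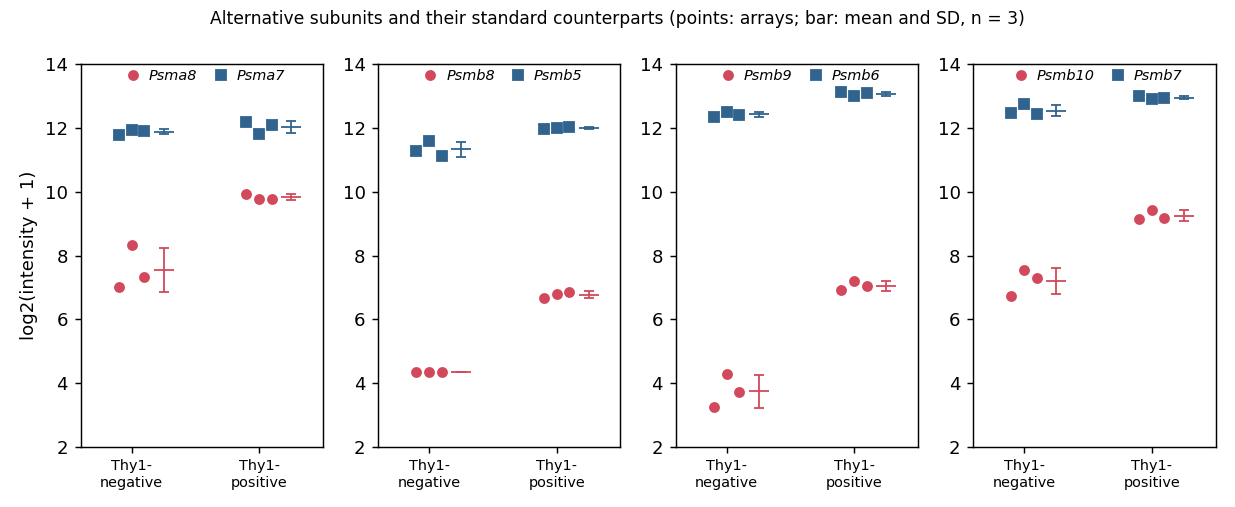
Log2(intensity + 1) (vertical axis) of alternative subunits (red circles) and their standard counterparts (blue squares) in Thy1-negative and Thy1-positive arrays; points are arrays and bars the mean with SD, n = 3. The alternative subunits Psma8, Psmb8, Psmb9 and Psmb10 step up by 2.06 to 3.30 between fractions, and their counterparts by 0.15 to 0.67.

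The immunoproteasome genes, which are not among the 44, all rose, by 2.06 to 3.30, where the standard subunits that they replace rose by 0.41 to 0.67. The test of this contrast, given after the values, could not pass 0.05 with 3 arrays a fraction. Psmb8 measured 4.35, 4.34 and 4.35 in the Thy1-negative arrays, against 6.66, 6.80 and 6.87 in the Thy1-positive ones (2.43, SE 0.06, adjusted p = 0.000116). Its Thy1-negative values hardly varied, as was also the case for probe sets at low signal such as that of Psmb11, so the size of this difference is uncertain. It was 1.82 with a pseudocount of 16 and 1.27 when its probe sets were averaged. Psmb9 measured 3.24, 4.27 and 3.71 against 6.91, 7.20 and 7.03 (3.30, SE 0.29, adjusted p = 0.0038). Its Thy1-negative mean, 3.74, was below that of Psmb8, 4.35, and its difference was 2.36 with a pseudocount of 16. The size of the Psmb9 difference is thus uncertain too. Psmb10 measured 6.74, 7.54 and 7.30 against 9.15, 9.44 and 9.18 (2.06, SE 0.24, adjusted p = 0.00632). In contrast to most members, P2 was not the lowest Thy1-positive array for any of these genes. Psmb9 and Psmb10 were highest on P2 and Psmb8 on P3. The macrophage marker mean was highest on P2, at 9.88 against 9.39 on P1 and 9.65 on P3, and its part in the immunoproteasome difference was not tested. Within each array, the alternative gene minus its counterpart changed between fractions by 1.76 for Psmb8 over Psmb5 and 2.66 for Psmb9 over Psmb6. The change was 1.66 for Psmb10 over Psmb7 and 2.13 for Psma8 over Psma7. The values for Psmb8 and Psmb9 share the uncertainty of their Thy1-negative levels. In an exact 2-sided permutation test each of these 4 comparisons had p = 0.1 and an adjusted p = 0.1, the smallest that 3 arrays against 3 allow. Such ratios show unequal change and not that either gene stayed the same.

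The ring of ATPases, the motor of the cap, had 4 of 6 genes higher and 0 lower, with a median of 0.56. Psmc5 measured 11.27, 11.70 and 11.33 in the Thy1-negative arrays, against 12.55, 12.32 and 12.48 in the Thy1-positive ones, a 2.02-fold difference (1.01, SE 0.14, adjusted p = 0.00947). Psmc1 measured 11.11, 11.45 and 11.15 against 12.32, 11.84 and 12.15 (0.87, SE 0.16, adjusted p = 0.0198). Both had P2 as their lowest Thy1-positive array and N2 as their highest Thy1-negative one, with no overlap. Psmc3 measured 11.50, 11.81 and 11.48 against 12.46, 12.24 and 12.33 (0.74, SE 0.12, adjusted p = 0.0121). Psmc6 measured 12.37, 12.52 and 12.39 against 12.97, 12.63 and 12.82 (0.38, SE 0.10, adjusted p = 0.045). Both of its other probe sets went the other way (-1.07 and -0.87). Psmc5 passed in all 6 fits without 1 array, Psmc3 failed without N3 or P3 (0.69 to 0.85), Psmc1 passed without N2 or P2 alone (0.76 to 1.00), and Psmc6 passed only without P2 (0.30 to 0.47). Psmc2 (0.30, adjusted p = 0.305) and Psmc4 (-0.14, adjusted p = 0.448), further ATPases of the ring, did not pass.

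Non-ATPase genes had 11 of 14 members higher and 0 lower, with a median of 0.76. The base part of this class, which docks ubiquitin receptors and binds ubiquitin, had all 3 genes higher. Psmd1, the larger scaffold of the base, measured 11.54, 11.66 and 11.48 in the Thy1-negative arrays, against 12.59, 12.33 and 12.58 in the Thy1-positive ones (0.94, SE 0.09, adjusted p = 0.00487). Psmd2, its partner scaffold, measured 11.84, 12.47 and 11.86 against 13.07, 13.16 and 13.03 (1.03, SE 0.20, adjusted p = 0.0196). P2 was the highest Thy1-positive array for Psmd2, unlike for most members. Psmd4, a ubiquitin receptor, measured 11.93, 11.94 and 11.89 against 12.77, 12.60 and 12.68 (0.76, SE 0.05, adjusted p = 0.00191), the lowest adjusted p of the members. Psmd1 and Psmd4 passed in all fits without 1 array, and Psmd2 only without N2 (0.92 to 1.24).

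In the lid, the part of the cap that removes ubiquitin chains, 5 of the 8 genes that are members rose. Psmd7, which pairs with the deubiquitinase Psmd14, measured 10.92, 10.42 and 10.74 in the Thy1-negative arrays, against 11.96, 11.72 and 11.93 in the Thy1-positive ones, a 2.26-fold difference (1.17, SE 0.15, adjusted p = 0.00789). N2 was the lowest Thy1-negative array here, the reverse of most members. Psmd13 measured 9.95, 10.47 and 10.05 against 11.15, 11.07 and 11.10 (0.95, SE 0.15, adjusted p = 0.0122). Psmd12 measured 11.83, 12.17 and 11.94 against 12.96, 12.56 and 12.83 (0.80, SE 0.14, adjusted p = 0.0166). Psmd14, the deubiquitinase itself, rose 1.51-fold (0.60, SE 0.10, adjusted p = 0.0141) and Psmd3, a lid scaffold, 1.69-fold (0.76, SE 0.07, adjusted p = 0.00395). Psmd7 and Psmd3 passed in all fits without 1 array. Psmd13 failed without N3 or P3 (0.84 to 1.10), Psmd14 without N1, N3 or P3 (0.54 to 0.67), and Psmd12 without N1, N3, P1 or P3 (0.72 to 0.91). Psmd6 (0.13, adjusted p = 0.342), Psmd8 (0.15, adjusted p = 0.288) and Psmd11 (0.50, adjusted p = 0.151), all lid subunits, did not pass.

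Assembly factors among the members rose without exception. The dedicated chaperones of the core, Psmg1 to Psmg4, were higher in 4 of 4 genes with a median of 0.93, and the chaperones of the base, Psmd5, Psmd9 and Psmd10, in 3 of 3 with a median of 0.56. Psmg1 and Psmg2 form a pair that helps to arrange the alpha ring. Psmg2 measured 11.07, 11.47 and 11.19 in the Thy1-negative arrays, against 12.37, 12.15 and 12.47 in the Thy1-positive ones, a 2.12-fold difference (1.08, SE 0.14, adjusted p = 0.00818). Psmg1 measured 10.39, 11 and 10.60 against 11.72, 11.38 and 11.60 (0.90, SE 0.19, adjusted p = 0.0256). Psmg3 and Psmg4 form the second pair of alpha ring chaperones. Psmg4 measured 6.67, 6.85 and 6.60 against 7.67, 7.66 and 7.69, with hardly any spread in Thy1-positive arrays (0.97, SE 0.07, adjusted p = 0.00269). Psmg3 measured 7.98, 7.83 and 7.97 against 8.44, 8.29 and 8.46 (0.47, SE 0.07, adjusted p = 0.0105). Of the base chaperones, Psmd5 measured 10.20, 10.92 and 10.35 against 11.51, 11.33 and 11.36 (0.91, SE 0.21, adjusted p = 0.032). Psmd10, also known as gankyrin, rose by 0.56 (SE 0.11, adjusted p = 0.0214) and Psmd9 by 0.50 (SE 0.08, adjusted p = 0.0113). Psmg2, Psmg3 and Psmg4 passed in all 6 fits without 1 array and Psmd9 failed only without P3 (0.44 to 0.58). Psmg1 failed without N1, N3, P1 or P3 (0.76 to 1.07), Psmd10 without N1, N2, P1 or P3 (0.48 to 0.64), and Psmd5 passed only without N2 (0.77 to 1.13).

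Among activators and the inhibitor, 1 of 4 genes rose and 0 fell, with a median of 0.32. Psme3, the nuclear activator PA28 gamma, measured 9.69, 10.59 and 9.87 in the Thy1-negative arrays, against 11.33, 10.85 and 11.30 in the Thy1-positive ones, a 2.17-fold difference (1.12, SE 0.29, adjusted p = 0.0456). It failed with the correction taken across every probe set of the array (adjusted p = 0.0597), and passed only without N2 among the fits that left out 1 array (0.93 to 1.39). Psme1, an activator subunit induced by interferon, measured 11.31, 11.43 and 11.19 against 11.45, 11.96 and 11.64 (0.37, adjusted p = 0.135), and P2 was its highest array. Psme4, the activator that acts on acetylated histones in spermatids, measured 10.47, 10.63 and 10.30 against 10.91, 10.63 and 10.68 (0.27, 95% interval -0.04 to 0.59, adjusted p = 0.156). The inhibitor Psmf1 differed by 0.15 (adjusted p = 0.316) on the probe set with the highest mean.

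Probe sets of a member did not always tell the same story. Another probe set above the median of the array was present for 21 members, 34 probe sets in all. Of the 16 members that did not pass, 12 had such a probe set. For 9 of these 12 at least 1 passed with a higher value in Thy1-positive cells, adjusted over all probe sets of the array. With this adjustment 16.4% of the 18193 genes rose on the probe set with the highest mean. A gene with several further probe sets has more than 1 chance to pass. The matching count for all genes was not made, so 9 of 12 is a description only. The second probe set of Psmb3 differed by 1.00 (SE 0.16, adjusted p = 0.0173), where the one with the highest mean differed by 0.41. The second one of Psmb4 differed by 0.60 (SE 0.09, adjusted p = 0.0156) against 0.20, and that of Psmc2 by 0.64 (SE 0.12, adjusted p = 0.0253) against 0.30. In Psmb4, Psmc2 and Psma6 the probe set with the highest mean is of the type that Affymetrix marks _x_at, whose probes may bind other transcripts. Of Psmf1, 1 further probe set differed by 0.73 (SE 0.03, adjusted p = 0.000896) and 1 by 0.28 (SE 0.06, adjusted p = 0.0303). The others with a probe set that rose were Psma5 (0.63), Psma6 (0.49), Psmc4 (0.32), Psmd11 (1.23) and Psme4 (0.42).

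Lower values were seen too. A further probe set of Psmc6 measured 10.15, 9.48 and 10.21 in the Thy1-negative arrays, against 9.10, 8.63 and 8.89 in the Thy1-positive ones. It fell (-1.07, SE 0.25, adjusted p = 0.0446). The remaining one was also lower but did not pass (-0.87, SE 0.26, adjusted p = 0.0829). The probe set with the highest mean was higher by 0.38, and did not pass with the adjustment over all probe sets (adjusted p = 0.0583). For Psmd11, 1 further probe set fell (-1.06, SE 0.26, adjusted p = 0.0466) while another rose by 1.23 (SE 0.19, adjusted p = 0.0166). Which transcripts these probe sets read is unknown here, so the direction of Psmc6 and Psmd11 depends on the probe set. Of the 9 members that passed and had another probe set above the median, 5 had 1 that also passed with a higher value. They were Psmd4 (1.05), Psmd7 (0.54), Psmd13 (0.85), Psme3 (0.88) and Psmg2 (0.94). No such probe set passed for Psma1 (0.24, 0.14 and 0), Psmb1 (0.03) or Psmd9 (-0.26), all at lower signal than the one kept. For this count too, none over all genes was made. When the probe sets of each gene were averaged, those at low signal included, Psma1 (0.24, adjusted p = 0.122) and Psmd9 (0.08, adjusted p = 0.168) no longer passed and Psmc6 was at -0.52 (adjusted p = 0.085). Psmb1 (0.32), Psmc1 (0.43), Psmd2 (0.52), Psmd7 (0.58), Psmd13 (0.59), Psme3 (0.67), Psmg3 (0.23) and Psmg4 (0.49) passed with differences more than 1.5 times smaller.

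**Figure D5:**
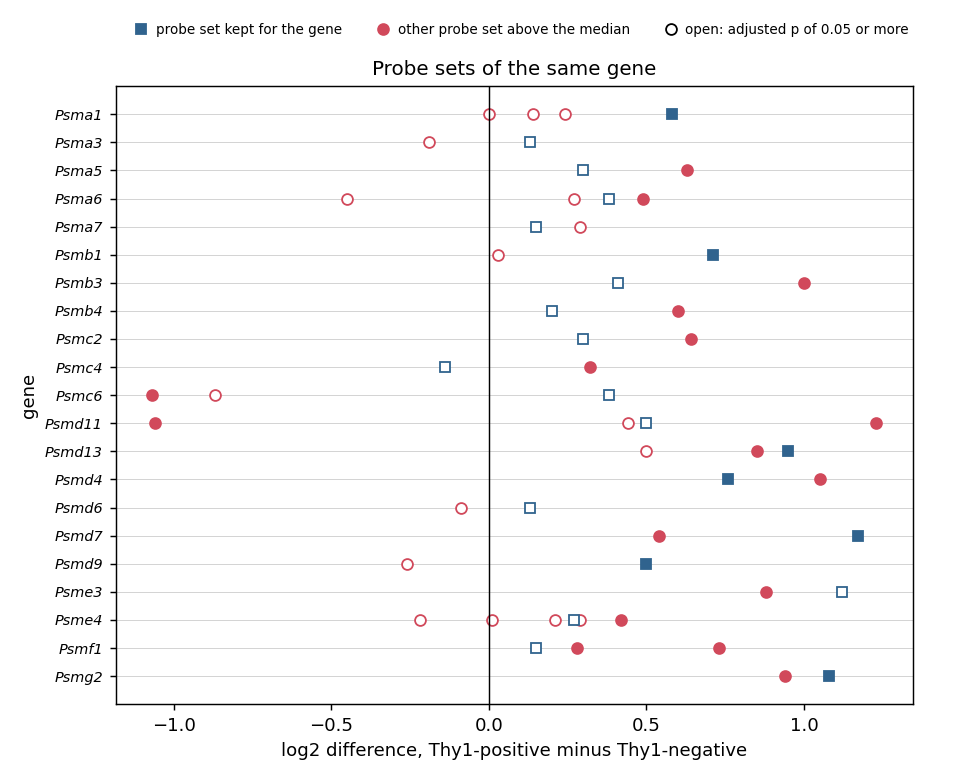
Log2 difference between fractions (horizontal axis) for the probe set kept for each gene (blue squares) and its other probe sets above the median (red circles), for the 21 members with such probe sets; filled symbols have an adjusted p below 0.05 over all probe sets, by which the kept probe sets of Psmc6 and Psme3 do not pass. Red filled circles lie to the right of open blue squares in Psma5, Psma6, Psmb3, Psmb4, Psmc2, Psmc4, Psmd11, Psme4 and Psmf1, and to the left of 0 in Psmc6 and Psmd11.

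Genes that work with the proteasome did not all move the same way. Of 38 listed genes 29 were measured, counting the 3 immunoproteasome genes, which all rose. Of the 29, 12 (41.4%) rose and 6 (20.7%) fell, with a median of 0.45. Over all genes 18.5% rose and 14.4% fell, and over genes above the median of all probe sets 27.7% and 22.4%. The share that fell was thus near that of genes in general. Ubiquilins, which shuttle tagged proteins to the proteasome, were lower in 3 of 3 measured genes on the probe set with the highest mean. Ubqln2 measured 13.17, 12.77 and 13.12 in the Thy1-negative arrays, against 11.41, 11.39 and 11.33 in the Thy1-positive ones (-1.64, SE 0.12, adjusted p = 0.00246). Ubqln4 fell by 0.83 (SE 0.12, adjusted p = 0.00942). Ubqln1 fell by 0.69 (SE 0.18, adjusted p = 0.0448), but it passed only without N2 among the fits that left out 1 array (-0.88 to -0.56), and its best probe set not ending in _x_at or _s_at was higher by 1.02 (adjusted p = 0.00404). The fourth measured shuttle factor, Rad23b, differed by 0.36 (adjusted p = 0.0941). With probe sets averaged, Ubqln2 was at -1.03 and Ubqln1 at 0.11.

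The remaining genes of this kind are named after their values had been seen. Pomp, the maturation factor of the core, measured 11.06, 11.12 and 11.22 against 12.45, 12.10 and 12.35 (1.17, SE 0.10, adjusted p = 0.00394). The proteasome-bound deubiquitinase Usp14 rose by 0.61 (SE 0.08, adjusted p = 0.00917) and the adaptor Ecpas by 0.92 (SE 0.18, adjusted p = 0.0225). Ecpas passed only without N2 among fits without 1 array (0.82 to 1.11). Txnl1 rose too (0.40, adjusted p = 0.0263). Of the 10 assembly and proteasome-bound proteins measured, 4 rose, 1 fell and 5 did neither, where 18.5% of all genes rose and 14.4% fell. The one that fell was Ube3a (-0.35, adjusted p = 0.00981). Sem1 (-0.10), Zfand5 (-0.14), Uchl5 (0.72), Fbxo7 (0.72) and Ube3c (0.45) did not pass. Of the p97 complex, which extracts tagged proteins from larger structures, 4 of 5 genes rose, among them the ATPase Vcp (0.52, SE 0.10, adjusted p = 0.0185) and its cofactor Ufd1 (0.80, SE 0.08, adjusted p = 0.00502). Vcp failed without N1, P1, P2 or P3 (0.44 to 0.58). Nfe2l1, the transcription factor that raises proteasome genes when the proteasome is inhibited, measured 8.95, 9.16 and 8.74 against 8.88, 9.59 and 9.17 and did not pass (0.26, adjusted p = 0.454). Its relative Nfe2l2 fell (-0.66, SE 0.06, adjusted p = 0.00407), and Nfe2l3 rose (1.97, SE 0.34, adjusted p = 0.0148) but failed without N1, P1 or P3 (1.72 to 2.30). The Thy1-negative mean of Nfe2l3 was low, at 4.44, and its difference was 1.43 with a pseudocount of 16, so its size is uncertain. Ngly1, also listed for transcriptional control, fell (-0.31, adjusted p = 0.0296). Of the 6 genes on that list 1 rose and 2 fell. Of the 6 ubiquitin and activating enzyme genes listed, Uba6 alone was measured (-0.17, adjusted p = 0.352). With probe sets averaged, the differences were -0.06 for Usp14, 0.18 for Vcp, 0.29 for Ufd1, -0.40 for Nfe2l2 and 0.85 for Nfe2l3.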

How the data were processed

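RNA of 3 Thy1-negative and 3 Thy1-positive testis cell fractions was measured on Affymetrix arrays, with 1 array for each sample. Linear intensities per probe set are what the authors deposited. GCRMA is the tool in the submitters' processing notes, with no version, while the sample descriptions of the labels speak of the Affymetrix software; the labels do not settle which of them made the values. Of 45101 probe sets, 64 controls were left out. Of the other 45037, 34945 had 1 gene symbol in the platform table, 932 several and 9160 none. The probe set with the highest mean stood for each of 18193 genes. Values were log2(intensity + 1), with no further scaling or filter.

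The comparison used limma 3.58.1 in R 4.3.3 (lmFit, then eBayes), 2-sided, with Benjamini-Hochberg adjustment at 0.05 over all genes; the fit was tested on simulated data. SE and 95% intervals are those of limma, the intervals not adjusted. The members and lists were chosen with earlier results of these data known. Values per array are given for the 3 members with the largest absolute difference in each class. They are also given for up to 6 members per class that passed, and for Psma8, Psme4 and the catalytic and immunoproteasome subunits. Of the other related genes, Ubqln2, Pomp and Nfe2l1 have them. Psma7 (the counterpart of Psma8), Psmd4, Pomp and Nfe2l1 were added after their values had been seen. The subclasses lid, base and chaperones, and the motifs, were chosen after the values had been seen. The labels do not say whether equal replicate numbers share a preparation, so the replicate block was used as an alternative only. Deviations from the group means correlated at -0.16, -0.17 and -0.04 over genes for numbers 1, 2 and 3. This cannot decide the question, since a shared preparation that sorted less cleanly could also give a negative correlation. Alternatives are given in the closing section.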

Additional observations from a re-analysis of the deposited data

How the results depend on the processing

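Of 18 alternative settings, 1 of them added after the data had been seen, each gave a positive median difference for proteasome genes, between 0.51 and 0.74, and the one that moved it by more than the SD between arrays (0.15) left out N2 and P2 (0.74). The count of 28 higher members was 26 to 41 under the settings that changed scaling, filter, probe set or variance model. The highest, 41, came with array weights, under which 41.3% of all genes were higher and 26.1% lower. It ranged from 12 to 30 in the fits that left out 1 array. With the replicate number as a block, which has fewer residual degrees of freedom, 5 members rose, where 5.12% of all genes did. The count of lower members was 0 in each setting but array weights, where it was 1 (Psmc4); the estimation of these weights stopped before its tolerance was reached. Psmd4, Psmd7, Psmg3 and Psmg4 passed in all 18. Centring arrays on their median moved the median of all genes from 0.01 to 0.13, raised the share of genes called higher from 18.5% to 57.4% (lower: 14.4% and 14.6%) and gave 39 higher members. Related genes numbered 19 higher and 10 lower with array weights and 4 higher and 2 lower with the replicate block, against 12 and 6, and the shares over all genes moved the same way (3.01% lower with the block). Without 1 array they numbered 6 to 17 higher and 4 to 6 lower. Directions turned with the mean of all probe sets for Psma3 (-0.03), Psmc4 (0.09), Psmc6 (-0.52), Ubqln1 (0.11) and Usp14 (-0.06). Without probe sets ending in _x_at or _s_at, Ubqln1 was at 1.02. Psmb11, at low signal in both fractions, turned to -0.02 with housekeeping centring and to -0.0019 with quantile normalization. Probe sets near background, such as that of Psmb11, limit what can be said of low genes. The cause of these changes was not tested.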
